A study of Mus musculus with 2 samples.

Results

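The 10 genes described here build the receiving side of the neuromuscular junction, the synapse through which a motor nerve drives a muscle fibre. They were taken by gene symbol, out of 55536 annotated genes measured in the series; the rule names symbols and uses no measured value, although earlier results of these data were known when it was made. They are 5 subunits of the muscle acetylcholine receptor (Chrna1, Chrnb1, Chrnd, Chrne and Chrng), 4 genes of the pathway that gathers the receptor under the nerve (Lrp4, Musk, Dok7 and Rapsn) and Ache, the enzyme that breaks down acetylcholine. The gastrocnemius, a calf muscle, was profiled by total RNA-seq in 2 males of the B6Cast F1 hybrid at 25 days of age. This hybrid (B6CASTF1/J) descends from C57BL/6J and CAST/EiJ parents. Per the labels, 300 ng of total RNA with added ERCC spike-ins (synthetic RNAs of known amount) gave 1 library per animal. No mutation, transgene or treatment is named. The labels number the males separately but give both the same donor entry. They were taken here as 2 separate animals, replicates of 1 group, and no condition was compared. Each SD with n = 2 rests on that assumption, which was not tested.

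The receptor is a pentameric ion channel in the muscle membrane that opens when acetylcholine binds. Before and shortly after birth it carries the gamma subunit (Chrng), and in mature fibres the epsilon subunit (Chrne) takes its place. Agrin from the nerve binds LRP4, LRP4 activates the kinase MuSK, DOK7 binds and sustains active MuSK, and rapsyn anchors the receptor in dense clusters. Only the few nuclei beneath the nerve ending transcribe many of these genes strongly, so whole-muscle RNA contains mostly RNA from elsewhere in the fibre.

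Levels are TPM from the deposited gene tables, a measure of transcript abundance per length, scaled to the same sum in each library. A second deposited quantification of each library was summed to genes and is named where used. Libraries held 35098487 counts in animal 1 and 37428588 in animal 2. The 8 muscle fibre markers summed to 90504 and 91517 TPM (Acta1, skeletal actin, alone 21950 and 23735 TPM), so the libraries carry the defining transcripts of the labelled tissue. In whole muscle, fewer cells of a type and less RNA per cell cannot be told apart. Nothing in the labels says how the animals' samples were handled apart from each other, so the spread between them may be partly technical.

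At TPM of 1 or more in both animals, 8 of the 10 genes were detected, against 45.1% of 22015 nuclear protein-coding genes. The remaining genes were Chrnd, which was below that level in animal 1 only, and Chrng, which was below it in both. In the second quantification 9 were detected, as Chrnd stood at 1.06 and 1.48 TPM, so its status depends on the table used. All 10 together summed to 61.4 and 70.1 TPM (65.8 ± 6.14, SD, n = 2). Among 9937 detected nuclear protein-coding genes the median of mean TPM was 6.82, with quartiles at 3.08 and 16.4. The means of all 10 junction genes lay below the upper quartile.

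**Figure D1:**
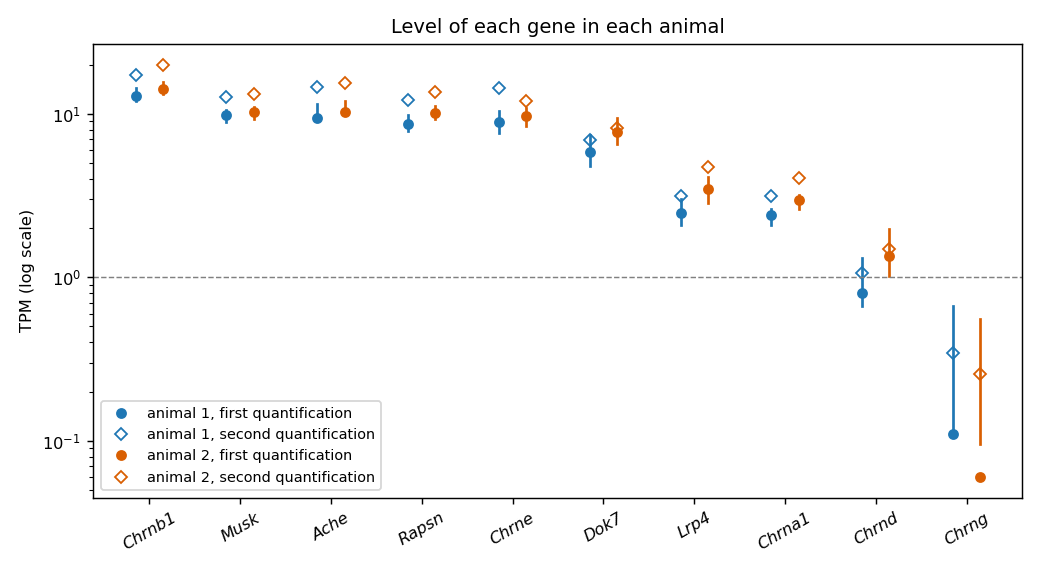
TPM (log scale) of the 10 junction genes in each animal, with the deposited interval of each value and the level in the second quantification. Chrnb1 was highest at 12.9 and 14.2 TPM, 5 genes lay between 5.87 and 10.3 TPM, and Chrng was lowest at 0.11 and 0.06 TPM.

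Of the receptor subunits, Chrnb1, the beta subunit, was the most abundant. It stood at 12.9 TPM in animal 1 and 14.2 TPM in animal 2 (13.5 ± 0.884, SD, n = 2), from 714 and 825 expected counts. The gene is ENSMUSG00000041189.9 at chr11:69784036-69795943 (mm10, minus strand). Its mean level was above that of 70.3% of the detected protein-coding genes, the highest place of any of the 10.

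Chrne, the subunit of the mature receptor, stood at 8.91 and 9.64 TPM (9.28 ± 0.516, SD, n = 2), from 287 and 363 counts. The gene is ENSMUSG00000014609.16 at chr11:70614883-70619216 (mm10, minus strand). The animals were close in this table, and the deposited intervals (7.63 to 10.4 TPM and 8.36 to 10.9 TPM) overlapped. The second quantification put animal 1 higher instead, at 14.4 against 12.02 TPM. Chrne transcription under the nerve is known to depend on an N-box, a short element bound by ETS factors, and on E-boxes, bound by myogenic factors. The promoter is therefore shown, 228 bases upstream of the annotated exons at chr11:70619217-70619444 (minus strand), with the N-box letters CCGGAA and the E-box letters CANNTG in capitals.
Chrne: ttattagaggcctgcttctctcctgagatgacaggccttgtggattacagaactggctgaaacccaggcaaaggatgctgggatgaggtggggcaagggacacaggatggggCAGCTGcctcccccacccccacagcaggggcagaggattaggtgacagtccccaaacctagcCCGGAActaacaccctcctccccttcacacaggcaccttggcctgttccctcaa
The CCGGAA began 76 bases before the RefSeq start of transcription and the CAGCTG 138 bases before it. Sequences shown are those of the mm10 reference, so alleles of the CAST/EiJ parent may differ.

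Chrng, the fetal subunit, was at 0.11 and 0.06 TPM, from 5 expected counts in each library (exact 95% Poisson interval 1.62 to 11.7 counts). The gene is ENSMUSG00000026253.14 at chr1:87204657-87212694 (mm10, plus strand). The deposited posterior intervals, 0.115 to 0.665 TPM and 0.0953 to 0.554 TPM, lay wholly above these point values. The posterior means were 0.37 and 0.31 TPM, and the second quantification gave 0.342 and 0.257 TPM. Chrng was the lowest subunit in each of these estimates, but its distance from Chrnd is poorly fixed, since in animal 1 its upper bound of 0.665 TPM all but met the lower bound of Chrnd, 0.670 TPM. Its RefSeq promoter lies inside the annotated M21 gene and is shown for comparison with Chrne, 249 bases outside exons at chr1:87205561-87205809 (plus strand), with E-box letters in capitals.
Chrng: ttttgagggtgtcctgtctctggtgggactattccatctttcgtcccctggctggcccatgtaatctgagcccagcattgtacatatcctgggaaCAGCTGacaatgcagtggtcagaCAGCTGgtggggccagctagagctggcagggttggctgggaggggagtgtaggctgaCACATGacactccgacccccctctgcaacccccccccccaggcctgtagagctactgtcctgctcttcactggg
This window held CAGCTG at 155 and 132 bases before the start and CACATG at 75 bases before it, and no CCGGAA on either strand.

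The adult subunit exceeded the fetal one in both animals under each estimate. By TPM, Chrne was 81-fold above Chrng in animal 1 and 161-fold in animal 2, a mean log2 ratio of 6.83 ± 0.70 (SD, n = 2). The second quantification gave a mean log2 ratio of 5.47 and the posterior means 4.77, so the size of this difference rests on how the 5 counts of Chrng are turned into a level. In its direction it did not change.

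Chrna1, the alpha subunit, which holds the acetylcholine binding site and enters each receptor as a pair, stood at 2.39 and 2.96 TPM (2.68 ± 0.403, SD, n = 2). The gene is ENSMUSG00000027107.3 at chr2:73563215-73580338 (mm10, minus strand). It received 295 and 388 counts over its 1 annotated transcript of 4386 bases. Per length it was below Chrnb1, by 5.40-fold in animal 1 and 4.78-fold in animal 2, and below Chrne by 3.73-fold and 3.26-fold. These ratios of TPM rest on the annotated transcript lengths, and in expected counts Chrna1 (295 and 388) was level with Chrne (287 and 363). Its promoter is shown because Chrna1 E-boxes are well known targets of myogenic factors, 250 bases at chr2:73580339-73580588 (minus strand), with E-box letters in capitals.
Chrna1: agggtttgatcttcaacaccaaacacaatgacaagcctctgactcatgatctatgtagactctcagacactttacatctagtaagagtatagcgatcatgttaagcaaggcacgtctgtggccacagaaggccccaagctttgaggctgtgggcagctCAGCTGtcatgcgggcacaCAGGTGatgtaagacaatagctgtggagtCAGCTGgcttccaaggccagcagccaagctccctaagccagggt
CAGCTG began 92 and 44 bases before the start, with CAGGTG at 73 bases before it.

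Chrnd, the delta subunit, stood at 0.80 and 1.35 TPM (1.08 ± 0.389, SD, n = 2), from 65 and 98 counts. The gene is ENSMUSG00000026251.13 at chr1:87190607-87200070 (mm10, plus strand), just upstream of Chrng on the same strand. Its deposited intervals, 0.670 to 1.32 TPM and 1.02 to 1.96 TPM, overlapped. It was 2.99-fold and 2.19-fold below Chrna1.

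As shares of the summed TPM of the 5 subunits, Chrnb1 took 50.8% ± 0.797 (SD, n = 2), Chrne 34.8% ± 0.883 and Chrna1 10.01% ± 0.702. Chrnd took 3.99% ± 1.14 and Chrng 0.325% ± 0.159. The sum itself was 25.1 and 28.2 TPM. The second quantification kept this order, with mean shares of 50.4%, 35.7%, 9.65%, 3.42% and 0.813%, while the posterior means gave Chrng 1.26%. Transcript shares are not shares of assembled receptor.

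**Figure D2:**
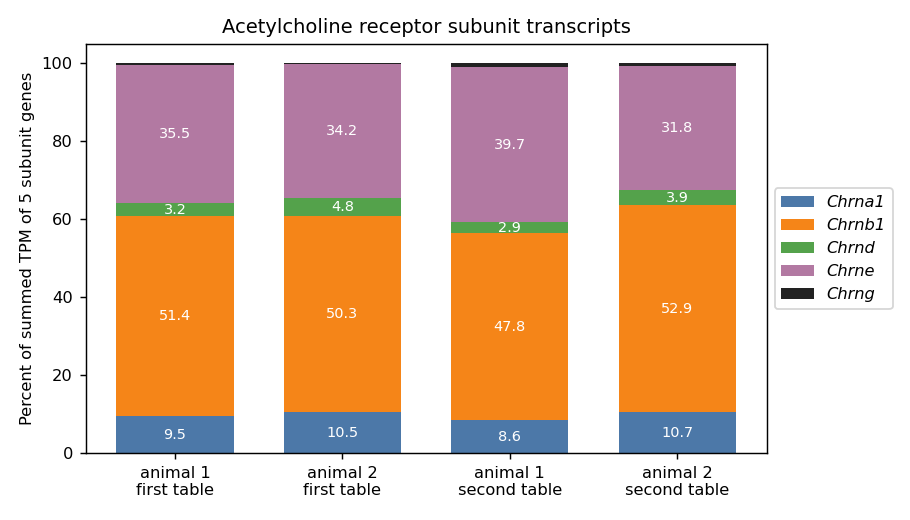
Percent of the summed TPM of the 5 receptor subunit genes taken by each, for both animals in the first and the second deposited quantification. Chrnb1 and Chrne made up most of each bar, and the fetal subunit Chrng was a thin band at the top of each.

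Sequence letters were counted in 300-base windows, from 250 bases before to 50 after each RefSeq start (build GRCm38.p6). Of the 10 genes 7 had such a window. Chrnd, Rapsn and Lrp4 had none, so their promoters were not searched. Dok7 had a pair of windows, so that the 7 genes had 8 promoters. CCGGAA, searched on both strands, occurred in 14.9% of 32851 mouse promoters and in 1 of the 8, that of Chrne. CANNTG occurred in 72.3% of promoters and in 7 of the 8, the exception being the downstream window of Dok7. CAGCTG, which is one form of CANNTG, occurred in 16.3% of promoters and in 4 of the 8 (Chrne, Chrng, Chrna1 and Musk). A match here describes letters only and is not evidence of binding.

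The clustering genes Lrp4, Musk, Dok7 and Rapsn summed to 26.9 and 31.6 TPM (29.3 ± 3.38, SD, n = 2), similar to the receptor sum. Musk, the receptor kinase that starts clustering, stood at 9.80 and 10.2 TPM (mean 10, SD 0.283, n = 2), from 856 and 922 counts. The gene is ENSMUSG00000057280.15 at chr4:58285960-58374303 (mm10, plus strand). Its TPM was the least variable of the 10 between the animals, relative to its mean. In the scaled counts compared below, Chrnb1 and Ache differed less, with log2 ratios of 0.02 and 0.04 against -0.08 for Musk. Rapsn, the receptor anchor, stood at 8.72 and 10.2 TPM (9.45 ± 1.03, SD, n = 2), from 364 and 457 counts. The gene is ENSMUSG00000002104.11 at chr2:91035620-91045729 (mm10, plus strand).

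Dok7, the cytoplasmic activator of MuSK, stood at 5.87 and 7.79 TPM (6.83 ± 1.36, SD, n = 2), from 367 and 474 counts. The gene is ENSMUSG00000044716.12 at chr5:35056766-35087839 (mm10, plus strand). Lrp4, the agrin receptor, stood at 2.47 and 3.47 TPM (2.97 ± 0.707, SD, n = 2), from 456 and 635 counts. The gene is ENSMUSG00000027253.15 at chr2:91457511-91513779 (mm10, plus strand). Lrp4 was the lowest of the 4 and was higher in animal 2. Musk exceeded Lrp4 by 3.97-fold in animal 1 and 2.94-fold in animal 2, and exceeded Dok7 by 1.67-fold and 1.31-fold.

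Musk is spliced in ways that alter its protein, and 3 of its in-frame alternative stretches were followed through the transcript tables. They are printed with 15 bases of the transcript on each side in lower case and the alternative stretch in capitals. The first is a 30-base exon at chr4:58327326-58327355, the next a 45-base extension at chr4:58347808-58347852 and the last a 24-base exon at chr4:58356482-58356505, all on the plus strand of mm10.
Musk 30: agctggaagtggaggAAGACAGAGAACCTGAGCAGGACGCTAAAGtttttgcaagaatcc
Musk 45: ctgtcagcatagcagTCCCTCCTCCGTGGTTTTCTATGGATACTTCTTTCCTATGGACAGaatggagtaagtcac
Musk 24: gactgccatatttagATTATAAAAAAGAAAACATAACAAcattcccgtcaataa
Coding transcripts with the 30-base exon made up 41.7% of Musk in animal 1 and 37.9% in animal 2 (39.8% ± 2.68, SD, n = 2), among transcripts that span it. Those with the 45-base extension made up 13.2% and 15.4% (14.3% ± 1.59). Those with the 24-base exon made up 71.5% and 78.9% (75.2% ± 5.21). The second quantification gave means of 38.2%, 13.3% and 78.4%. For all 3 stretches, forms with and without them were thus present in both animals.

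Rapsn carried a 159-base in-frame exon at chr2:91041854-91042012 (mm10, plus strand) in 85.4% and 87.1% of its coding transcripts (86.2% ± 1.18, SD, n = 2). The transcript without it, Rapsn-203, is a minor form. The exon is printed with its flanks as above.
Rapsn 159: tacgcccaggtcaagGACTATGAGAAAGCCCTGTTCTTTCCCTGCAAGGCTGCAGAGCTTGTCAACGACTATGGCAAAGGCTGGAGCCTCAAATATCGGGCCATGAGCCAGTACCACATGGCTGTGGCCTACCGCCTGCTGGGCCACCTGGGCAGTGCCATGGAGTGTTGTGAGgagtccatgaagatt
The second quantification gave 88.2% and 87.1% for the same exon.

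Chrne has 2 coding transcripts, Chrne-201 of 1616 bases and Chrne-202 of 1591 bases. Inside the coding sequence they differ by 3 bases at the start of an exon, at chr11:70615315-70615317 on the minus strand of mm10. Their lengths show that they differ elsewhere too, so the shares below need not rest on these 3 bases. The stretch is printed with its flanks.
Chrne 3: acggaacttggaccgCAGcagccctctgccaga
The form with these bases, Chrne-201, took 65.5% of the coding Chrne transcripts in animal 1 and 0% in animal 2. The second quantification gave 71.4% and 46.5%. The estimates for animal 2 disagreed between the deposited tables, so no preference for either form can be read from them.

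Most of the 10 genes had the same leading transcript in each estimate. Of 47 annotated transcripts, the leading one was shared by both animals and both quantifications for 7 of the 9 genes with more than 1 transcript, the exceptions being Chrne and Chrng. Chrna1 has 1 annotated transcript, so nothing could vary there. Chrnb1-201 took 90.8% and 90.1% of Chrnb1. Rapsn-201 took 77.5% and 85.3%, and Lrp4-201 75.7% and 71.9%. Musk-202 took 52.8% and 54.5%, and Musk-207 25.9% and 18.5%. Dok7-203 took 58.7% and 45.9%, with a further 18.7% and 25.6% given to the 390-base Dok7-204. The second quantification put Dok7-204 at 0 and Dok7-203 at 71.1% on average. Dok7-205, which retains an intron, took 0% and 11.7% in the first tables, and 0% and 9.71% in the second. Chrne transcripts with a retained intron took 37.9% and 24.2% in the first tables, and 48.7% and 14.7% in the second. These shares come from reads divided among overlapping transcripts.

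**Figure D3:**
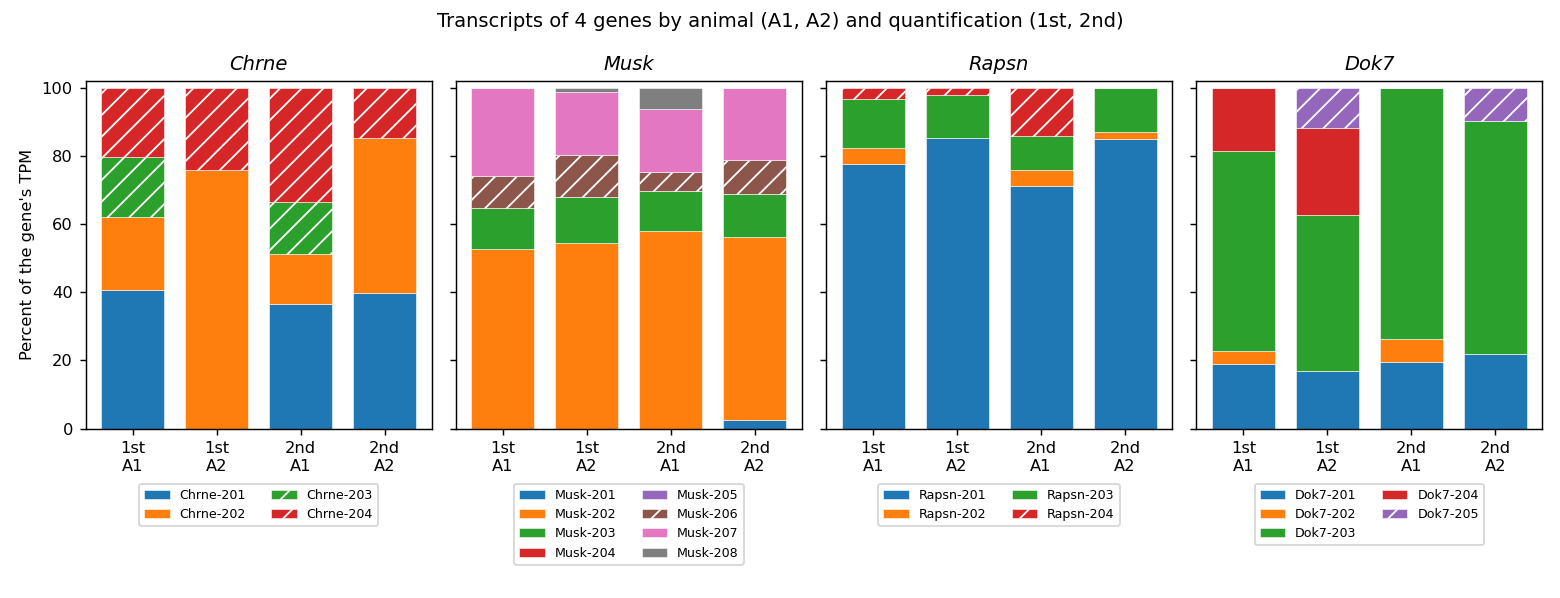
Percent of the abundance of Chrne, Musk, Rapsn and Dok7 taken by their annotated transcripts, for both animals and both deposited quantifications. In the first tables Musk-202 filled 52.8% and 54.5% of the Musk bars, and Rapsn-201 filled 77.5% and 85.3% of the Rapsn bars. The divisions of Chrne and Dok7 shifted between animals and between quantifications.

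Ache encodes acetylcholinesterase, which ends the signal at the synapse. It stood at 9.46 and 10.3 TPM (9.89 ± 0.608, SD, n = 2), from 589 and 689 counts. The gene is ENSMUSG00000023328.14 at chr5:137287519-137294466 (mm10, plus strand). Ache-201 took 54.7% and 74.9% of it and Ache-202 40.3% and 18.4% in the first tables. The pair has the same coding sequence, and the second quantification put Ache-202 at 0 in both animals. Ache-208, which retains an intron, took 4.99% and 6.71%.

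The list of cholinesterase partners held 4 genes, of which 3 were detected. Prima1, the membrane anchor of the enzyme, was at 9.89 and 7.86 TPM, and Colq, the collagen tail that fixes it in the synaptic cleft, at 2.33 and 3.77 TPM. Pcsk6, a proprotein convertase, was at 9.57 and 9.81 TPM. Bche, the related butyrylcholinesterase, was lower at 0.41 and 0.64 TPM. All 4 passed the adjusted p between the libraries described next. By scaled counts Colq and Bche were higher and Prima1 and Pcsk6 lower in animal 2, and none passed 2-fold. The log2 ratio of Pcsk6 was -0.23 by scaled counts, although its TPM was slightly higher in animal 2.

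By mean TPM the order was Chrnb1, Musk, Ache, Rapsn, Chrne, Dok7, Lrp4, Chrna1, Chrnd and Chrng. Of the 9 neighbouring pairs in that order, 4 had overlapping ranges over the animals. These were Musk with Ache, Ache with Rapsn, Rapsn with Chrne, and Lrp4 with Chrna1. Within each animal Ache exceeded Rapsn and Lrp4 exceeded Chrna1. The order of Musk and Ache, and that of Rapsn and Chrne, changed between the animals. In the second quantification Ache (14.5 and 15.4 TPM) stood above Musk (12.6 and 13.3 TPM) and Rapsn (12.1 and 13.7 TPM) without overlap. The mean of Chrne was there above that of Rapsn with overlapping ranges.

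The libraries were then compared gene by gene, as a measure of how far 2 animals of 1 group differed. Rounded expected counts were scaled by TMM and tested with a two-sided exact conditional binomial test, with Benjamini-Hochberg adjustment over the 14754 genes that had at least 20 counts in sum. The test knows sampling error only and compares these libraries, not a condition. Genes that differed over 2-fold with an adjusted p below 0.05 were counted as called. Where genes passed higher or lower in animal 2, the direction is that of the scaled counts. Over genes tested with a mean TPM of 1 or more, the median log2 ratio was 0.12 by TPM and 0.018 by scaled counts. A gene can therefore be lower in animal 2 by scaled counts and higher by TPM. Of the 9 junction genes tested, 0 were called, against 1.78% of all genes tested, and 1 had an unadjusted p under 0.05. Chrng had too few counts to be tested.

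That gene was Lrp4, with an adjusted p of 0.00914 by the exact binomial test and a higher level in animal 2. Of all genes tested, 8.10% passed the adjusted p and were higher in animal 2, and 6.99% passed it and were lower. A count of 1 in 9 is close to that background. The log2 ratio of Lrp4 was 0.29 (exact 95% interval 0.12 to 0.47), and in the second quantification it was 0.26 with an adjusted p of 0.0146. With total counts in place of TMM, 3 of the genes passed the adjusted p, Lrp4, Chrna1 and Dok7.

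The other ratios had intervals that included 0. Chrnd had the highest, at 0.40 (exact 95% interval -0.06 to 0.88), followed by Chrna1 at 0.21 (-0.01 to 0.43) and Dok7 at 0.18 (-0.02 to 0.38). Chrne was at 0.15, Rapsn at 0.14, Ache at 0.04 and Chrnb1 at 0.02. Musk was at -0.08, and turned to 0.01 with total counts. In all, 8 of 9 ratios were above 0, against 53.2% of all genes tested. The median over the 9 was 0.15, against 0.015 over all genes tested. Scaling by spike-ins gave medians of 0.17 and 0.030, and total counts 0.25 and 0.11.

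**Figure D4:**
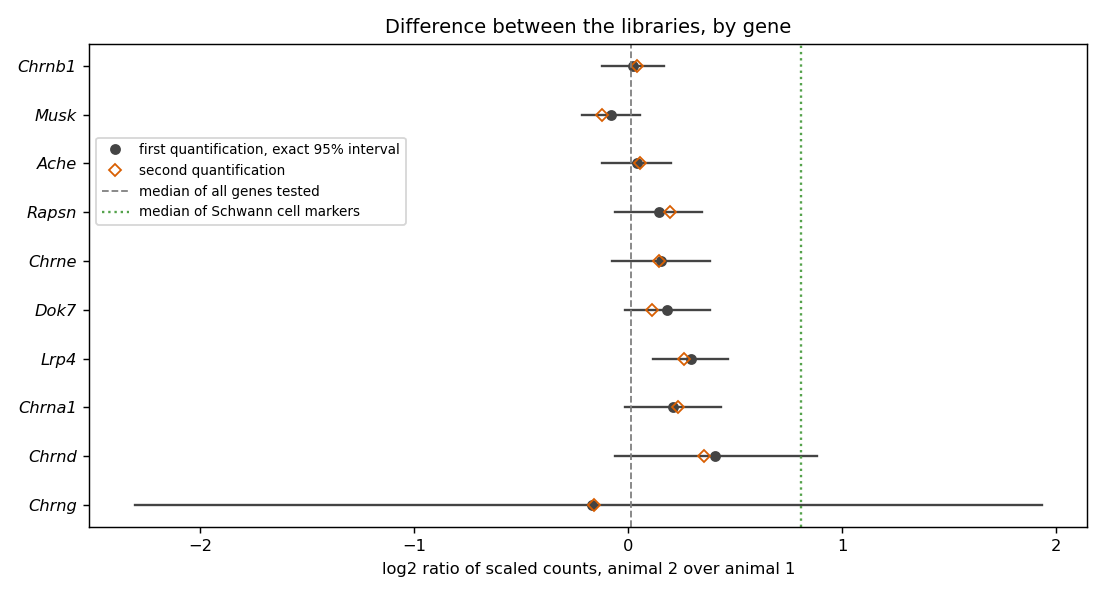
Log2 ratio of scaled counts, animal 2 over animal 1, for each junction gene with its exact 95% interval, the ratio in the second quantification, the median of all genes tested (dashed) and the median of Schwann cell markers (dotted). The interval of Lrp4, 0.12 to 0.47, lay above 0, and that of Chrng was the widest.

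Markers of muscle fibres and of some other cells differed between the same libraries. All 8 muscle fibre markers passed the adjusted p, 3 higher and 5 lower in animal 2, and none was called. Their median log2 ratio was -0.06. Abundant genes pass this test at small ratios, as Ckm did at -0.02. All 11 Schwann cell markers tested had ratios above 0, with 7 past the adjusted p and 4 called, among them Prx, Mal and Ncmap. Their median log2 ratio was 0.81, and the 12 markers summed to 58.4 TPM in animal 1 and 118 TPM in animal 2. Prx (periaxin), a protein of myelinating Schwann cells, was at 2.43 and 5.10 TPM. All 6 slow-fibre markers also passed the adjusted p and were higher in animal 2, summing to 1035 and 1924 TPM with a median log2 ratio of 0.80, and 1 of them, Tnni1, was called at 1.01. Other lists went the opposite way. All 5 fibroblast markers had ratios below 0, 3 of them past the adjusted p, and summed to 1235 and 832 TPM, with Col1a1 at a log2 ratio of -0.99. All 4 erythroid markers also had ratios below 0, 3 of them past the adjusted p, and summed to 562 and 516 TPM. Of 5 endothelial markers, 2 passed the adjusted p higher in animal 2, with Kdr at 0.77, and the 5 summed to 50.8 and 58.4 TPM. Of 6 satellite cell markers 2 passed it higher, and of 5 macrophage markers 1 passed it lower. No fibroblast, erythroid, endothelial, satellite cell or macrophage marker was called. The part of these in the ratios of the junction genes was not tested.

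Motor nerve markers were scarce. Of 14, 1 was detected, Vamp1 at 6.35 and 7.49 TPM, a vesicle protein whose transcript is not restricted to nerve. Chat, Slc18a3 and Slc5a7, which make, load and recycle acetylcholine in the nerve, were listed at 0 in both animals, as was Mnx1. The cell bodies of motor neurons lie in the spinal cord and are not part of this tissue. Of the 4 markers with enough counts to test, 0 passed the adjusted p of the exact binomial test.

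Other nicotinic receptor subunits were nearly all at or near 0. Of 11, 10 were below 0.1 TPM on average, and Chrna3, Chrna6 and Chrnb3 were listed at 0 in both animals. The exception was Chrna9, a subunit best known from cochlear hair cells, at 6.40 and 4.45 TPM, above Chrna1 in both animals. It was lower in animal 2, with a log2 ratio of -0.63 (adjusted p = 7.0e-06 by the exact binomial test) and -0.55 in the second quantification. Gm43771, an annotated gene on the same strand that overlaps Chrna9 without shared exon bases, had 97 and 65 counts. Whether reads of Chrna9 come from its own mature transcript was not tested.

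Genes for the nerve-derived signals and the basal lamina numbered 14, of which 11 were detected. Dag1 (dystroglycan) at 64.9 and 71.7 TPM, Lamb2 at 50.5 and 55.4 TPM, Lamc1 at 40.0 and 44.2 TPM and Hspg2 (perlecan) at 34.8 and 40.9 TPM were the most abundant. Agrn, which encodes agrin, the ligand of LRP4, was at 2.83 and 3.81 TPM, and agrin is made by muscle as well as nerve. Nrg1 was at 0.02 and 0 TPM. Of 13 tested, 2 passed the adjusted p higher in animal 2, Hspg2 and Colq, and 2 lower, Nid1 and Lama2. None was called, and the median log2 ratio was -0.01.

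Scaffold and signalling genes on the muscle side numbered 30, of which 26 were detected. Plec (plectin) led at 284 TPM in each animal, followed by Scn4a, the muscle sodium channel, at 117 and 134 TPM. Ctnnb1 (beta-catenin) at 73.8 and 86.1 TPM came next. The neuregulin receptors were low, with Erbb3 at 0.95 and 1.28 TPM and Erbb2 at 0.62 and 0.80 TPM. Of 30 tested, 8 passed the adjusted p higher in animal 2 and 2 lower (Plec and Pak1), against 8.10% and 6.99% of all genes tested. None was called. Plec passed at a log2 ratio of only -0.09, on 74920 and 80264 counts, with nearly equal TPM. Pak1 was at -0.27, although its TPM was 10.5 and 10.8. The median log2 ratio of the list was 0.06.

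All 10 genes of the synaptic transcription list were detected. Myf6, the myogenic factor of mature fibres, stood at 45.7 and 42.0 TPM, and Hdac4, a repressor that responds to nerve activity, at 22.1 TPM in each animal. Gabpa, the ETS factor known to bind the N-box, was at 7.28 and 8.77 TPM, and Myod1 at 7.46 and 6.93 TPM. Etv5 and Etv4 passed the adjusted p higher in animal 2, with log2 ratios of 0.45 and 0.96, and Myf6 passed it lower at -0.22. The list's median log2 ratio was 0.0037, and none of its genes was called.

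Genes that respond, in either direction, when muscle loses its nerve numbered 12 and include Chrng. Of these 6 were detected, led by Hdac4, Cdkn1a at 17.7 and 16.4 TPM, Gadd45a at 16.6 and 12.7 TPM and Ncam1 at 8.13 and 11.98 TPM. Myh3, the embryonic myosin, was at 8.32 and 4.66 TPM. Of 10 tested, 1 passed the adjusted p higher in animal 2 and 3 lower. The higher one, Sln (sarcolipin), was the only one called, from 5 and 27 counts. The median log2 ratio was -0.12. Among 5 glycosylation genes that are mutated in congenital myasthenia, all were detected, led by Gfpt1 at 9.28 and 9.67 TPM, and none of 5 passed the adjusted p by the exact binomial test.

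**Figure D5:**
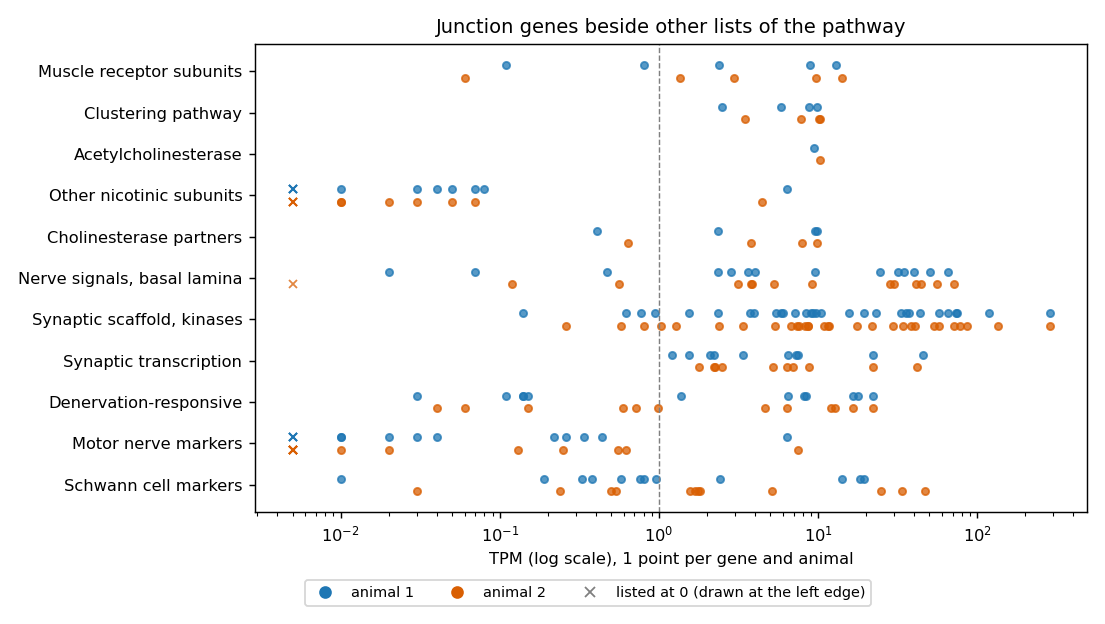
TPM of each gene (log scale) in both animals for the junction genes and 8 related lists, with genes listed at 0 drawn at the left edge and the detection level of 1 TPM dashed. The 5 receptor subunits spanned from 0.06 to 14.2 TPM, the 4 clustering genes from 2.47 to 10.2 TPM, and most other nicotinic and motor nerve genes lay below 0.1 TPM.

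Other genes overlap 3 of the 10 on the genome, and the use of strand in counting is not given in the sources used here. Chrne overlaps 4930544D05Rik on the opposite strand without shared exon bases. Rapsn shares 4 exon bases with Gm13778 on the opposite strand, and Ache 98 with Gm42456. The overlapping genes had 0 counts in both libraries, apart from Gm13778 with 2 and 3.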

How the data were processed

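Total RNA-seq libraries of 2 animals of 1 group were used. The first pair of deposited tables per library holds expected counts, TPM, posterior mean TPM and each transcript's percent of its gene, all computed by the authors, per the file headers. Bounds of an interval on TPM, a signal that is never negative, were also deposited by the authors, with no level stated in the headers. The second deposited table holds estimated counts and TPM per transcript, summed here to genes. Per the accompanying text files, the build was mm10 and the annotation GENCODE M21, with the aligner, counter and strand setting not given in the sources used here. Because TPM has a fixed sum, abundant RNAs lower every other value.

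Of 81881 gene entries 55536 matched M21. The rest were 96 spike-ins (0.543% and 0.573% of counts), 26248 entries named by a number (1 count per library) and phiX, and were left out. Expected counts were rounded, TMM-scaled (edgeR 4.0.16, R 4.3.3), filtered at a summed count of 20 and tested by an exact conditional binomial test (scipy 1.17.1, two-sided, Benjamini-Hochberg). Called means adjusted p under 0.05 and over 2-fold, with a prior count of 0.5. The test was checked on simulated counts that held sampling error only. That check does not cover variation between animals. Library totals of 35098487 and 37428588 make a count of 0 compatible with up to 3 counts, 0.0855 and 0.0802 CPM (counts scaled by library size). Intervals cover counting error only. Fits to replicates were not possible with 1 library per animal and no second group.

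The 10 genes, the 20 lists (161 symbols matched) and the tests were chosen with earlier results of these data known. The named genes are the 10, up to 4 of the most abundant members of each list, any called member and defining members at or near 0. Some genes of the lists are not reported here by name. Nid1, Lama2, Agrn, Nrg1, Erbb2, Erbb3, Pak1, Etv5, Etv4 and Myh3 were added after their values were seen. Promoter sequences are RefSeq's (GRCm38.p6) and exon sequences come from mm10. Alternatives were total counts, DESeq2 1.42.0 size factors, TPM ratios, no filter, the second quantification, posterior means, other detection levels, leaving out each animal and, added after seeing the data, spike-in scaling.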

Additional observations from a re-analysis of the deposited data

How the results depend on the processing

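The count of called junction genes was 0 under each of the 6 alternatives (total counts, DESeq2 size factors, TPM ratio, no filter, second quantification, spike-ins). The count past the adjusted p was 1 except with total counts, where it was 3, as Chrna1 (log2 ratio 0.30) and Dok7 (0.28) joined Lrp4, and Musk changed sign from -0.08 to 0.015. That scaling raised all genes past the adjusted p from 2226 to 3541 and the percent of them higher in animal 2 from 53.7% to 82.9%. The median ratio of all genes tested rose with it from 0.015 to 0.11. The second quantification moved the Chrne share to 35.7% and the Chrng share to 0.813%, and the log2 ratio of Chrne over Chrng to 5.47. Posterior means gave a Chrng share of 1.26% and a ratio of 4.77. Leaving out either animal kept Chrne above Chrng and the order of the subunit shares. It leaves only the other animal's values, so it is a weak check. The order of Musk and Ache, that of Rapsn and Chrne, and the leading transcript of Chrne and Chrng differed between the animals in the first tables. The second quantification moved the level of 8 of the 10 genes and the leading transcript's share of 6 beyond the spread between animals, and posterior means moved the level of 2, Chrng and Ache. TPM taken over nuclear protein-coding genes raised all 10 by the same scaling, Chrna1 from 2.68 to 6.72 and Chrnb1 from 13.5 to 34.1 TPM. The cause was not tested for these changes. Depth limits Chrng, with 5 counts per library, and Chrnd, with 65 and 98. No paired analysis was possible because the series has 1 group.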
